A study of Mus musculus with 2 samples.

Results

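High-insulin β cells were taken from 2 single-cell RNA-Seq libraries of mouse pancreatic islets as barcodes chosen by their measured insulin share. A barcode was a member when at least 500 genes were detected in it, at most 10% of its unique molecular identifiers (UMIs, each counting 1 captured transcript) were mitochondrial, Ins1 and Ins2 together held at least 60% of its UMIs, and Gcg, Sst and Ppy each held under 5%. This gave 1269 barcodes in the WT library and 447 in the GKO library, or 1716 of the 13446 barcodes that passed the limits on genes and mitochondrial UMIs, and of 15081 in all. No member of WT shared its barcode sequence with a member of GKO, and 18 barcode sequences were shared between the full libraries.

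The libraries came from wild-type C57BL/6N mice (WT) and from littermates homozygous for a germline knockout of the ghrelin gene (GKO), 8 weeks old and fed standard chow. The loss of ghrelin in GKO was therefore present throughout life and in every tissue. Islets of 4 mice were pooled per genotype, dispersed, sorted for live single cells and loaded as 1 library, so each genotype is represented by 1 pool. There was no replicate, so no test was made, and a difference between GKO and WT here is a difference between these 2 libraries. Intervals are exact 95% intervals, Poisson (conditional binomial) for ratios of UMIs and Clopper-Pearson for shares, and they cover counting error only.

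β cells make insulin as a preprohormone that enters the endoplasmic reticulum (ER), is folded and oxidized there, and is cut to insulin by prohormone convertases in dense-core granules. The mouse has a pair of insulin genes, Ins2, the counterpart of the gene of other mammals, and Ins1, a retroposed copy. Islet amyloid polypeptide, encoded by Iapp, is stored in the same granules and released with insulin, and both genes are driven by homeodomain factors such as PDX1 that bind A boxes and by basic helix-loop-helix factors such as NEUROD1 that bind E boxes.

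No stretch upstream of Ins2, the more abundant insulin gene, was at hand. The stretches upstream of Ins1 and Iapp, which are also abundant in members, are shown. They are the 150 bases before the RefSeq start of each gene (mm10, GRCm38.p6, plus strand), with TAAT on either strand (the core of an A box) and CANNTG (the E box, which reads alike on both strands) in capitals. Ins1 is at chr19:52264147-52264296 and Iapp at chr6:142298275-142298424, and no overlap between the A box and E box letters occurs in them.
Ins1: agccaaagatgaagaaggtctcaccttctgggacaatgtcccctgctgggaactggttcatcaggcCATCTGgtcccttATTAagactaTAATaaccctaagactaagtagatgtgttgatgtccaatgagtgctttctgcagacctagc
Iapp: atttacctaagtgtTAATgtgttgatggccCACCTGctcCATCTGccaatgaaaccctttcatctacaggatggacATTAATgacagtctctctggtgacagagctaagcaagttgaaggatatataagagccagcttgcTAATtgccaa
The Ins1 stretch held 2 TAAT and 1 CANNTG, and the Iapp stretch held 4 TAAT and 2 CANNTG. Of 32851 RefSeq promoters of the same length, 16.2% held at least 2 TAAT and 3.41% at least 4, and 47.7% held at least 1 CANNTG and 15.3% at least 2. These matches are a description of the letters, not of bound sites.

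The label held against its markers. Nkx6-1, a homeodomain factor kept on in mature β cells (chr5:101658139-101664996, minus strand, mm10), had a UMI in 95.9% of WT members (94.7 to 96.9) and 96.0% of GKO members (93.7 to 97.6). Among barcodes with at least 5 UMIs of endothelial markers, a cell type that should lack it, 1.77% in WT and 1.41% in GKO had a Nkx6-1 UMI, at a median of 7629 and 7455 UMIs per barcode against 40196 and 41149 in members. Ucn3, the urocortin peptide that mature mouse β cells co-release, had a UMI in 94.5% and 96.2% of WT and GKO members and in 2.04% and 1.41% of these endothelial-marker barcodes. In the 25 to 60% barcodes it was found in 74.8% and 72.9%. Slc2a2, the glucose transporter GLUT2, was found in 98.3% and 99.1%, and Slc30a8, the granule zinc transporter, in 99.8% and 99.6%, although Slc30a8 was also found in 99.6% and 99.4% of barcodes with at least 10% Gcg and so does not set members apart from those. Mafa, a mature β cell factor, was the exception among the markers, with 137 UMIs over all WT members and 85 over all GKO members, and a UMI in 9.61% and 16.1% of them.

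Transcripts of other cell types were scarce but present. Irx1, a transcription factor of α cells, had 10 UMIs over all WT members and 4 over all GKO members, and Hhex, the δ cell factor, had 57 and 19. Hormone transcripts of the other cell types were found in nearly every member at low shares, with median shares of all UMIs in WT of 0.0347% for Gcg, 0.0238% for Sst and 0.0663% for Ppy. In GKO these medians were 0.0434%, 0.0154% and 0.0615%. As UMIs per barcode the WT medians were 14 for Gcg, 10 for Sst and 27 for Ppy in members, against 3, 2 and 6 in the shallower endothelial-marker barcodes. Free RNA itself was estimated from the hormone UMIs of those endothelial-marker barcodes at 123 UMIs per barcode in WT and 148 in GKO, or 0.291% and 0.355% of the members' UMIs.

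Ghrelin transcripts were rare in WT members and nearly absent in GKO members. Ghrl (chr6:113716119-113719880, minus strand) had 217 UMIs over the WT members and 1 over the GKO members (log2 ratio −6.28, interval −11.59 to −3.78, relative to non-insulin UMIs), in the direction of the labels. A Ghrl UMI was found in 15.4% of WT members (13.4 to 17.5), never more than 3 in a barcode, and in 4.22% of the endothelial-marker barcodes (2.88 to 5.93), at median depths of 40196 and 7629 UMIs. Relative to all UMIs, the WT level was 4.03 per 1000000 in members and 4.34 in the endothelial-marker barcodes, and relative to non-insulin UMIs 12.3 and 4.37. After thinning to 5000 non-insulin UMIs, 5.97% and 3.21% held a UMI, and whether these UMIs came from the members themselves was not tested. Ghsr, the ghrelin receptor, had 2 UMIs over the WT members and 0 over the 447 GKO members. The interval for the share of GKO members with a Ghsr UMI was 0 to 0.822%, which sets no limit on how many express it.

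**Figure D1:**
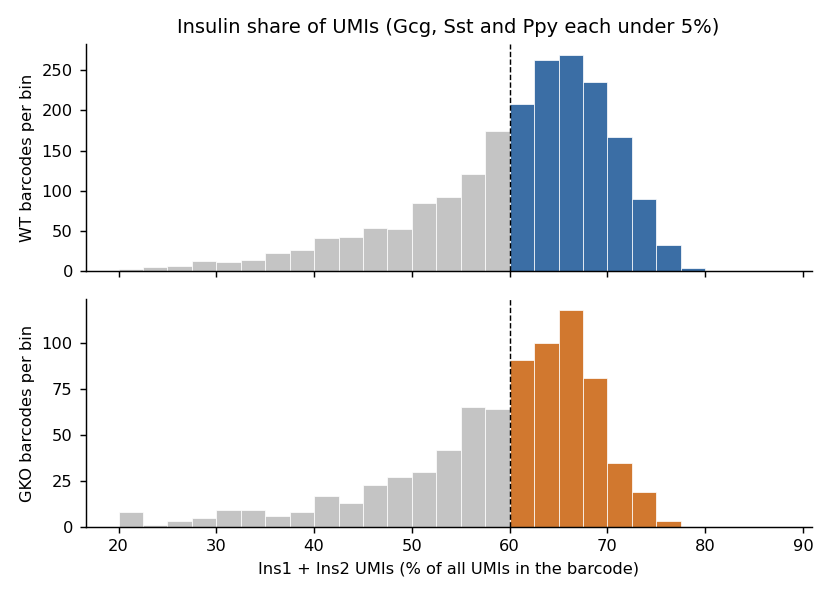
Barcodes per 2.5-point bin of the insulin share of UMIs (x axis, percent) for WT (top) and GKO (bottom), with members colored and the limit of 60% dashed. Only barcodes with Gcg, Sst and Ppy each under 5% are counted. The axis starts at 20%, and the 1473 WT and 2224 GKO of these barcodes at 0 to 2.5% are not drawn. Of the bins drawn, the highest of each library lies above the limit, with medians of 66.5% and 65.7% among members, and there is no gap at 60%.

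Members made up 17.9% of the barcodes kept in WT (17.0 to 18.8) and 7.04% in GKO (6.43 to 7.70). Among barcodes with at least 25% insulin and the same limits on the other hormones, members were 62.6% of 2027 in WT (60.5 to 64.7) and 58.2% of 768 in GKO (54.6 to 61.7). The gap between the libraries was thus wide in the number of insulin-positive barcodes and narrow in how many of those passed 60%, with intervals that overlap for the latter. Fewer β cells in the islets, fewer that outlived dispersion and sorting, and a different mix of cells captured cannot be told apart. Members held 34.7% of the UMIs of kept barcodes and 67.8% of the insulin UMIs in WT, and 18.6% and 64.0% in GKO.

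The limit cuts through a continuous distribution. Just inside it, 63 WT and 32 GKO members had 60 to 61% insulin, and just outside it 65 WT and 22 GKO barcodes had 59 to 60%. A single WT barcode and no GKO barcode passed 60% insulin but was left out for another hormone, and 2 WT barcodes were left out by the limits on genes or mitochondrial UMIs. The highest insulin share was 80.6% in WT and 76.7% in GKO. Depth was closely matched between the libraries within members. The median member held 40196 UMIs in WT and 41149 in GKO, of which 13065 and 13497 were not insulin, with 3867 and 3931 genes detected and 2.52% and 2.74% mitochondrial UMIs.

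Among members, a higher insulin share went with more insulin transcripts, while the number of others differed little. The bands were cut on that share, which fixes the ratio of insulin to other transcripts but not which of them differs. From 60–65% to 70–75% insulin, the median number of insulin UMIs per barcode went from 21897 to 34452 in WT and from 22042 to 31596 in GKO. The median number of all other UMIs went from 12839 to 13341 in WT, and in GKO it was 13297, 14012 and 12824 over the 3 bands. In WT it was 13072 in the 37 members with 75 to 80% insulin, whose median insulin count was 40633. Since the rule used the insulin share, every other gene below is given as a level in CPM, here UMIs per 1000000 UMIs other than insulin, so that insulin itself does not push it down.

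**Figure D2:**
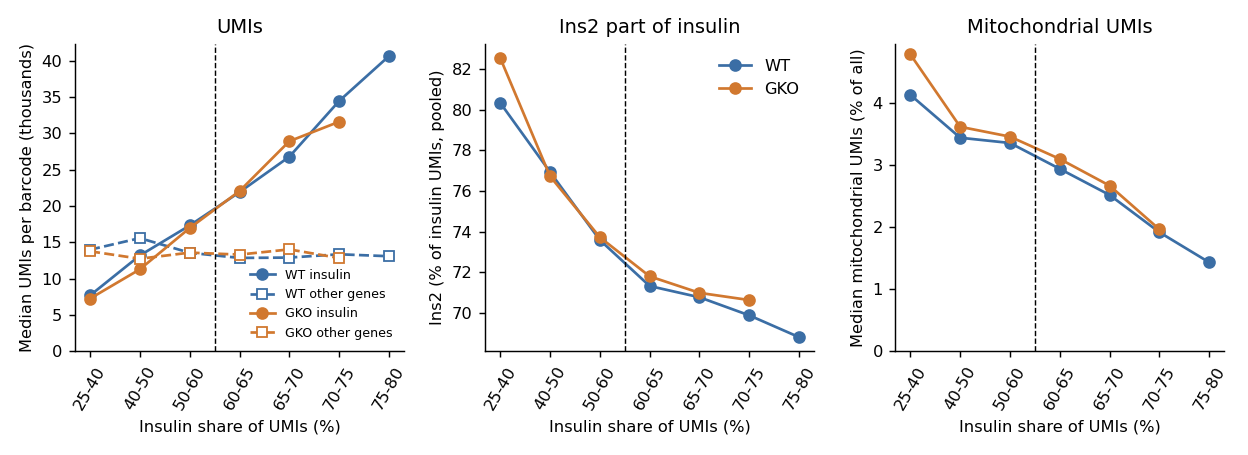
Median insulin and other UMIs per barcode (left), Ins2 as a percent of insulin UMIs pooled over barcodes (middle) and median mitochondrial percent of UMIs (right), by band of the insulin share (x axis, percent), for bands with at least 20 barcodes; the dashed line marks the limit of 60%. Other UMIs stay between 12824 and 14012 per barcode in the member bands up to 75% while insulin UMIs rise, and the Ins2 part falls from 71.3% to 68.8% in WT and from 71.8% to 70.6% in GKO.

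The balance of the insulin genes was nearly the same in both genotypes and shifted with the insulin share. Ins2 held 70.6% of the members' insulin UMIs in WT and 71.2% in GKO, with an SD over barcodes of 3.06 and 2.88 percentage points, where counting alone would give 0.289 and 0.290. In WT it was 80.3% at 25–40% insulin, 71.3% at 60–65%, 69.9% at 70–75% and 68.8% at 75–80%. In GKO it was 82.5%, 71.8% and 70.6% over the bands up to 70–75%. The barcodes richest in insulin therefore had relatively more Ins1. Ins1 and Ins2 transcripts resemble each other, so how reads that match both were counted could move these percentages, which was not tested. Iapp, which the rule did not use, was at 119501 CPM in WT members and 117007 in GKO members, and at 90954 and 94012 in barcodes with 25 to 60% insulin.

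Between the genotypes, most genes of the members lay close together. Of 6126 genes with a mean level of at least 20 CPM, 201 (3.28%) were higher in GKO members by at least 0.32 on the log2 scale and 333 (5.44%) lower by as much, and the median log2 ratio was 0.0095. Over all UMIs, where the slightly lower insulin share of GKO lifts every other gene by 0.051 on the log2 scale, the counts were 362 and 242. The counts therefore lean to the lower side on the first scale and to the higher side on the second, and a small ratio has no fixed direction. Below, a gene is counted as higher or lower when its log2 ratio passed 0.32 in size. Counts in a list are to be read beside the 3.28% higher and 5.44% lower among all genes. A count near those shares does not set a list apart.

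**Figure D3:**
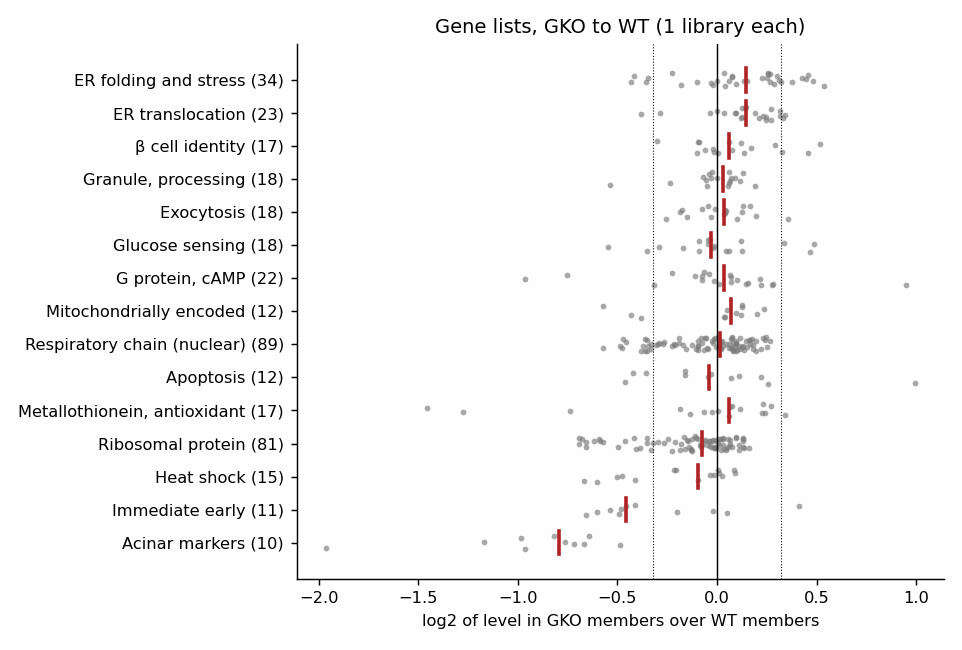
Log2 of the level in GKO members over that in WT members (x axis) for each gene counted in 15 lists (gray points, number of genes in parentheses), with the list median (red bar) and the limits of 0.32 either way (dotted). ER genes lie mostly right of 0 and acinar and immediate early genes mostly left, with list medians of 0.14, 0.15, −0.79 and −0.46.

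Genes of the ER, where proinsulin is made and folded, were on balance higher in GKO members. Of 34 folding and ER stress genes counted, 6 were higher and 4 lower, against 3.28% and 5.44% of all genes. The median was 0.14 against 0.0095 for all genes. Creld2, an ER disulfide isomerase, was at 211 CPM in WT and 306 in GKO (log2 ratio 0.54, interval 0.46 to 0.62). Sdf2l1, an ER chaperone cofactor, was at 604 and 841 (0.48, 0.43 to 0.53). The 6 also held Ppib, a peptidyl-prolyl isomerase (273 and 374), Pdia4, a disulfide isomerase (165 and 221), Dnajc3, a cochaperone of BiP (885 and 1150), and Derl3, of ER-associated degradation (47.9 and 65.3). Large chaperones moved less, with Hspa5, which encodes BiP, at 1740 and 2142 (0.30, 0.27 to 0.33) and Hsp90b1 at 2152 and 2587 (0.27, 0.24 to 0.29).

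The 4 lower members of that list included regulators of the stress response. Herpud1, an ER membrane protein of degradation, was at 243 in WT and 180 in GKO, and Crebrf, a regulator of the unfolded protein response, at 85.0 and 63.6. Ddit3, the stress transcription factor CHOP, was at 44.6 and 34.8, and Ern1, the ER stress sensor IRE1α, at 67.6 and 53.1. Atf4, the transcription factor upstream of Ddit3, was at 263 and 225 (log2 ratio −0.22, interval −0.31 to −0.14), short of the limit. Xbp1, the transcription factor spliced by IRE1α, was at 288 and 296.

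The translocation machinery, which carries new preprohormone into the ER, leaned to the same side, though most of its genes did not pass the limit. Of 23 genes counted, 2 were higher and 1 lower, against 3.28% and 5.44% of all genes. Of the 23, 19 were above 0, and the median was 0.15. Srpr, the signal recognition particle receptor, was at 585 in WT and 739 in GKO (0.34, 0.29 to 0.39), and Srp9, of the particle itself, at 527 and 664. Sec61g, the small subunit of the Sec61 channel, went the other way, from 1634 to 1256 (−0.38, −0.42 to −0.34). The abundant Ssr4 and Sec61b, of the translocon, were at 2106 and 2294, and at 1443 and 1479.

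Summed over each list, the folding genes were at 16690 CPM in WT members and 19578 in GKO members (log2 ratio 0.23, 0.22 to 0.24) and the translocation genes at 15058 and 16345 (0.12, 0.11 to 0.13). Bands of equal insulin share showed the same side for both lists. Folding genes were at 15825 and 18328 at 60–65% insulin, 17054 and 20605 at 65–70%, and 17513 and 20270 at 70–75%, and translocation genes at 13693 and 14977, 15323 and 17252, and 16711 and 18006. The barcodes with 25 to 60% insulin had log2 ratios of 0.22 and 0.11 for the sums of these lists. Barcodes with at least 10% Gcg (α-rule) had 0.029 and −0.073, those with at least 10% Sst (δ-rule) −0.12 and −0.12, and the endothelial-marker barcodes −0.065 and −0.0056. Whether the classes differ was not tested.

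Immediate early genes, which are switched on within minutes of a stimulus or of tissue dispersal, were lower in GKO members. Of 11 counted, 7 were lower and 1 higher, against 5.44% and 3.28% of all genes, with a median of −0.46. Jun was at 174 in WT and 114 in GKO (−0.60, −0.72 to −0.49), Ier2 at 36.1 and 22.9 (−0.66, −0.93 to −0.39), Fos at 168 and 122, and Egr1 at 89.2 and 61.3. The exception was Cebpb, at 29.6 and 39.4. Btg2, an antiproliferative gene and among the most abundant of the list, was at 175 and 173, and Jund at 379 and 330. The sum of the list was 1285 and 1074 CPM, against 17726 and 16079 in endothelial-marker barcodes, 4371 and 5104 in α-rule barcodes, and 4714 and 3864 in δ-rule barcodes. The list was thus lower in members than in these classes, and its sum was lower in GKO in members, δ-rule and endothelial-marker barcodes and higher in GKO in α-rule barcodes.

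Heat shock genes, whose cytosolic chaperones answer to heat and handling, followed in part. Of 15 counted, 5 were lower and none higher, against 5.44% and 3.28% of all genes, with a median of −0.098. Dnajb1 was at 142 and 89.8 (−0.67, −0.80 to −0.53) and Hsph1 at 141 and 93.3 (−0.60, −0.73 to −0.47). Hspa1a and Hspa1b, near-identical copies whose reads cannot be fully told apart, were at 240 and 181, and at 208 and 147. The abundant Hsp90ab1 stayed at 1391 and 1400, and Hspa8 was at 1329 and 1143.

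Genes of β cell identity were nearly level as a list. Of 17 counted, 3 were higher and none lower, against 3.28% and 5.44% of all genes, with a median of 0.062. Nkx2-2, a homeodomain factor, was at 77.7 in WT and 111 in GKO (0.51, 0.38 to 0.65), Pdx1, the factor that binds the A boxes, at 151 and 207 (0.45, 0.36 to 0.55), and Hopx at 94.8 and 119. Nkx6-1 itself was at 328 and 369 (0.17, 0.10 to 0.24), and Neurod1 at 229 and 229. Pdx1 had a UMI in 82.5% of WT members (80.3 to 84.6) and 90.4% of GKO members (87.3 to 93.0), and after thinning every barcode to 5000 non-insulin UMIs in 50.1% and 62.2%.

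The granule and its processing enzymes were nearly level. Of 18 genes counted, 1 was lower and none higher, against 5.44% and 3.28% of all genes. Pcsk1, the convertase that begins proinsulin cleavage, was at 573 and 597 (0.06, 0.00 to 0.11), Pcsk2 at 4406 and 4240, Cpe, the carboxypeptidase that trims the products, at 2971 and 2892, and Chga, chromogranin A, at 14657 and 15270 (0.06, 0.05 to 0.07). The gene past the limit was Furin, a convertase of the constitutive pathway, at 30.7 and 21.1. Among 18 exocytosis genes, Syt4, a synaptotagmin, was the gene past the limit, at 245 and 314 (0.36, 0.28 to 0.43).

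Glucose sensing showed single genes apart from an otherwise level list, with 3 of 18 higher, 2 lower and a median of −0.029. Of all genes, 3.28% were higher and 5.44% lower. G6pc2, the islet glucose-6-phosphatase, was at 1787 in WT and 1225 in GKO (−0.55, −0.58 to −0.51). Txnip, a glucose-responsive gene, was at 225 and 311, Mdh1, of the malate shuttle, at 440 and 555, and Got1, of the same shuttle, at 18.9 and 26.4 (0.48, 0.21 to 0.76), a ratio of 0.24 at an insulin limit of 65%. Slc2a2 was at 890 and 876. The G6pc2 ratio was −0.38 in barcodes with 25 to 60% insulin and 0.0013 in α-rule barcodes, where its level was 18.1 and 18.2. In δ-rule barcodes it was −1.01, from 104 WT and 35 GKO UMIs at levels of 8.06 and 3.99.

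In signaling through G proteins and cAMP, 1 of 22 genes was higher and 2 lower, against 3.28% and 5.44% of all genes. Pde10a, a phosphodiesterase that breaks down cyclic nucleotides, was at 74.2 in WT and 143 in GKO (0.95, 0.82 to 1.07). Rgs2, which damps Gq signaling, was at 966 and 496 (−0.96, −1.02 to −0.91), and Gnai1, an inhibitory G protein subunit, at 31.6 and 18.8. Pde10a was higher in GKO by 0.68 in barcodes with 25 to 60% insulin, 0.65 in α-rule and 0.45 in δ-rule barcodes. The Rgs2 ratio was −0.76 in the 25 to 60% barcodes, −0.16 in α-rule and −0.36 in δ-rule barcodes.

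Further genes with the largest ratios served varied roles. Higher in GKO were Ppat, of purine synthesis (53.8 and 96.9), Ckb, the brain creatine kinase (121 and 199), Aldh5a1, of GABA breakdown (49.8 and 77.9), Fh1, fumarase (120 and 184), Errfi1, an inhibitor of epidermal growth factor receptor signaling (47.7 and 72.6), Orc6, of the replication origin complex (43.0 and 64.7), and Kdm2b, a histone demethylase (64.3 and 96.5). Lower in GKO were the metallothioneins Mt1 (519 and 214, log2 ratio −1.28, interval −1.36 to −1.19) and Mt2 (78.0 and 28.4, −1.46, −1.69 to −1.23), which bind zinc and copper, Sh3pxd2a, a podosome scaffold (167 and 85.0), Pde5a, a cGMP phosphodiesterase (270 and 151), Sox4 (151 and 90.3), Mdm1 (146 and 83.9), Snrpg, of the spliceosome (76.4 and 46.2), and Gm10076 (946 and 573). Gm10076 is a predicted gene of ribosomal type, so its reads may be shared with a near-identical copy. The metallothionein ratios were as wide in barcodes with 25 to 60% insulin (−1.37 for Mt1 and −1.39 for Mt2) and near 0 in α-rule barcodes (−0.0017 and −0.030).

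Genes of cell death were mixed. Of 12 counted, 1 was higher and 3 lower, against 3.28% and 5.44% of all genes, with a median of −0.039. Gadd45a, induced by DNA damage, was at 13.6 in WT and 27.0 in GKO (0.99, 0.70 to 1.28), and Cdkn1a, the cell cycle inhibitor p21, at 54.1 and 39.3 (−0.46, −0.67 to −0.26). Bcl2l1, an antiapoptotic gene, was at 29.6 and 22.1, Trp53inp1 at 55.4 and 43.2, and Bax, a proapoptotic gene, at 144 and 155 (0.11, 0.0022 to 0.22).

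Short transcripts were lower in the GKO library across cell types. Of 81 ribosomal protein genes, 18 were lower in GKO members and none higher, with a sum of 95164 CPM in WT and 86707 in GKO. The 18 included Rpl37a, at 2188 and 1354 (−0.69, −0.73 to −0.66), and Rpl41, at 3947 and 2616 (−0.59, −0.62 to −0.57), while Rps27a was at 1956 and 2025. The 23 ribosomal genes with a median transcript of up to 600 bases had a median ratio of −0.22 and the 58 longer ones −0.016. The same held without ribosomal genes, where 120 transcripts of up to 600 bases had a median of −0.18, with 39 lower and 1 higher, and 4651 of at least 1500 bases had 0.0068. In α-rule, δ-rule and endothelial-marker barcodes the short transcripts had medians of −0.14, −0.16 and −0.12.

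Mitochondrial genes were mixed. Of 12 genes encoded in the mitochondrion, 3 were lower, including the short mt-Nd3 (699 and 471) and mt-Atp8 (116 and 86.0), while mt-Co1 was at 12421 and 13253 and mt-Co3 at 16590 and 17143. Of 89 nuclear genes of the respiratory chain, 14 were lower and none higher, among them Ndufa3 (121 and 81.1) and Atp5k (282 and 201), with a list median of 0.014. Whether transcript length accounts for any of these ratios was not tested.

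Acinar transcripts, which β cells do not make, were lower in GKO members in 10 of 10 genes counted, with a summed level of 637 CPM in WT and 333 in GKO. The most abundant was Ctrb1, a chymotrypsinogen (137 and 70.2), and Try4, a trypsin, differed most (72.5 and 18.6). The sum was also lower in GKO in barcodes with 25 to 60% insulin (899 and 366) and in endothelial-marker barcodes (1599 and 455). Summed markers of δ and γ cells were also at lower levels in GKO members, with 3042 and 1427 for 8 δ genes and 3965 and 2828 for 8 γ genes. The sum of 12 stellate genes was 109 and 66.3, but it had no fixed order over the bands of insulin share, with 189 and 79.0 at 65–70% and 45.8 and 65.7 at 70–75%, and 1 WT member held 114 of the 273 WT UMIs of Col3a1, a collagen. The δ and γ sums hold Sst and Ppy, which the rule used, and beside them Rbp4 was at 147 and 96.5 and Pyy, peptide YY, at 1596 and 861. At an insulin limit of 65% the log2 ratios of Rbp4 and Pyy were −0.21 and −0.30. Sparc, the only stellate gene above the limit on levels, was at 29.0 and 12.1 (log2 ratio −1.26), but its ratio turned to 0.38 at an insulin limit of 55%. Endothelial genes were at 58.2 and 54.0. Sst was the most abundant of the δ list (1922 and 831), in which Rgs2 also stands, and the defining markers were low, with Hhex at 3.24 and 3.02 and Dcn, of stellate cells, at 14.8 and 9.22. The γ markers Fap and Gpc5 were at 0 in members of both libraries. The part of other cells' RNA in the genes above was not tested.

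Against barcodes of the same libraries with 25 to 60% insulin (758 WT, 321 GKO), members had higher levels of ER translocation genes and lower levels of immediate early genes. Of 6287 genes, 448 (7.13%) passed the limit of 0.32 as higher in members in both libraries and 427 (6.79%) as lower in both. These barcodes were chosen by insulin in both groups, so the counts describe the division and do not test it. Over all UMIs the counts were 35 and 4703, because insulin takes a larger part of each member's UMIs.

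**Figure D4:**
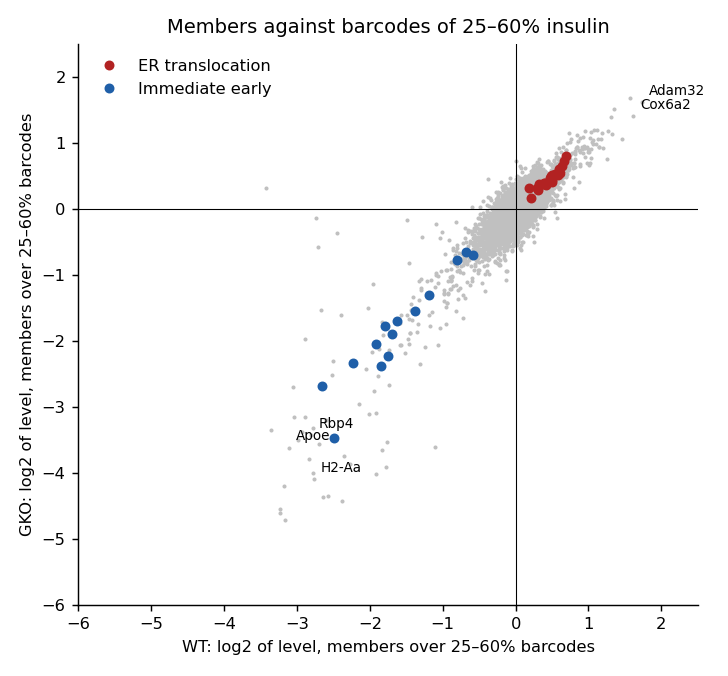
Log2 of the level in members over that in barcodes of 25 to 60% insulin in WT (x axis) and GKO (y axis), 1 point per gene, with ER translocation genes in red and immediate early genes in blue; 1 of 6287 genes lies outside the axes or had no UMI and is not drawn. ER translocation genes lie above 0 in both libraries and immediate early genes below 0 in both.

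ER translocation genes were higher in members of both libraries for 18 of 23 genes and lower for none, with medians of 0.48 in WT and 0.44 in GKO. ER folding genes were higher for 21 of 34 and lower for 1, with medians of 0.37 and 0.41. Against barcodes with 50 to 60% insulin alone, a range chosen after the data were seen, 11 of 23 and 13 of 34 were higher, and over all genes 229 were higher and 257 lower in both libraries. The lower gene, Ppp1r15a, encodes a phosphatase subunit that ends the stress response. Derl3 had the largest difference of that list, 1.57 in WT and 1.68 in GKO. Ero1lb, the oxidase that drives disulfide formation in β cells, was higher by 0.98 and 0.94, Ucn3 by 0.85 and 0.95, Slc2a2 by 0.80 and 0.70, and G6pc2 by 0.95 and 0.79. Identity transcription factors were mixed, with Nkx6-1 higher by 0.42 and 0.40, Pdx1 by 0.23 and 0.10, Neurod1 at 0.0062 and −0.020, and Isl1 at −0.37 and −0.35.

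Among genes with a mean of at least 50 CPM, those with the largest excess in members had varied roles. Adam32, of a metalloprotease family, was at 90.9 CPM in WT members and 27.3 in WT barcodes of 25 to 60% insulin (log2 ratio 1.73, interval 1.56 to 1.91), and at 83.9 and 27.3 in GKO (1.62, 1.34 to 1.90). Cox6a2, a heart and muscle form of a cytochrome oxidase subunit, was higher by 1.61 and 1.41. Car10, a carbonic anhydrase relative, was higher by 1.26 and 1.19, Prss53, a serine protease, by 1.18 and 1.16, Zc3h3 by 1.12 and 1.20, and Trpm5, a cation channel, by 1.13 and 1.07. Of the 89 nuclear respiratory chain genes, 5 were higher in both libraries, so Cox6a2 stood apart from most of its list.

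Among the 427 genes lower in members of both libraries were genes of other cells and of the early response. Apoe, an apolipoprotein abundant in macrophages, was at 41.9 in members and 363 in 25 to 60% barcodes in WT, and at 61.3 and 753 in GKO. The class II genes H2-Aa, H2-Ab1 and H2-Eb1, which present antigen in immune cells, had log2 ratios of −2.77, −2.70 and −2.83 in WT and −4.09, −3.57 and −3.80 in GKO. These ratios turned sign without barcodes holding at least 3 UMIs of 22 endothelial, stellate, immune and red cell markers, an alternative chosen after the data were seen. They were then 0.69, 0.44 and 0.48 in WT and 0.22, 0.56 and 0.52 in GKO, and Apoe was at 0.40 and 0.59. Rbp4, a δ cell marker that the rule did not use, was at 147 in members and 1025 in the 25 to 60% barcodes in WT, and at 96.5 and 1039 in GKO. Stellate markers were at 109 and 419 and at 66.3 and 614, and immune markers at 365 and 885 and at 326 and 1544. C1qa was the most abundant gene of the immune list in members, at 215 and 182 in WT and 222 and 249 in GKO, while C1qb, which macrophages make beside it, was at 8.92 and 61.1 and at 8.11 and 129.

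Immediate early genes were lower in members of both libraries for 14 of 14 genes, with medians of −1.72 and −1.84. Atf3 differed by −2.66 and −2.69, Klf2 by −2.49 and −3.47, Dusp1 by −1.91 and −2.04, Jun by −1.75 and −2.23, and Fos by −1.39 and −1.55. Of 16 heat shock genes, 7 were lower in both libraries, led by Hspb1 (−2.51 and −2.30). With other hormones under 1%, 14 of 14 immediate early genes were lower in both libraries, with medians of −1.59 and −1.81, and without barcodes holding the 22 markers 9 of 11, with −1.05 and −1.03. With both limits together, also chosen after the data were seen, 6 of 11 were lower, with medians of −0.69 and −0.44. Atf3 was then at −0.96 and 0.39, Klf2 at 0.56 and −0.33, Dusp1 at −0.69 and −0.12 and Hspb1 at −0.58 and −0.52, so the first pair no longer had a shared direction. Under both limits 297 genes were higher and 490 lower in members, and 3 of 15 heat shock genes were lower. The number of higher genes was then 15 of 34 for folding and 11 of 23 for translocation, whose medians were 0.36 and 0.34. The part of other cells' RNA in these ratios was not tested beyond these limits.

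Inside the members, levels also differed with the insulin share. From 60–65% to 70–75% insulin, 192 of 6126 genes (3.13%) were higher in both libraries and 791 (12.9%) lower. These bands held 470 and 257 members in WT, and 191 and 54 in GKO. No interval was taken for the band ratios, and counting error is widest in the GKO band of 54. Of 23 translocation genes 5 were higher in both, with medians of 0.26 and 0.21, and of 34 folding genes 2, with medians of 0.11 and 0.081, against −0.049 and −0.061 for all genes. Of 18 exocytosis genes none was higher and 3 were lower, with medians of −0.11 and −0.12, where members against barcodes of 25 to 60% insulin had medians of 0.18 and 0.11. Of 17 β cell identity genes 2 were higher and 3 lower, with medians of −0.16 and −0.086. Immediate early genes were nearly flat in WT, with a summed level of 1304 at 60–65% and 1257 at 70–75%, and went from 1185 to 899 in GKO. Of 12 mitochondrially encoded genes, 5 were lower in both libraries, and their sum went from 81118 to 70193 in WT and from 84950 to 71915 in GKO.

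**Figure D5:**
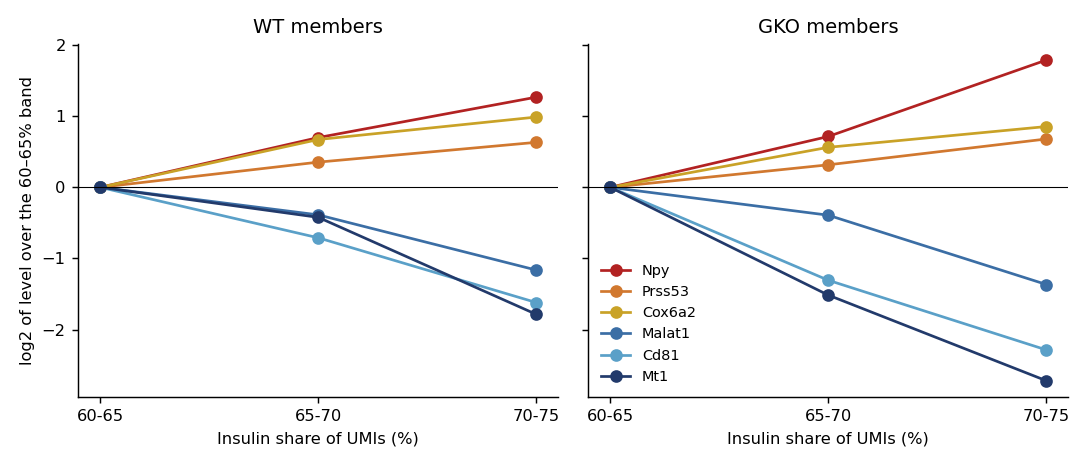
Log2 of the level relative to members with 60–65% insulin (y axis) in 3 bands of the insulin share (x axis, percent) for 6 genes, in WT (left) and GKO (right). Prss53 and Cox6a2 rise and Malat1, Cd81 and Mt1 fall with the insulin share in both libraries, and Npy rises from 60–65% to 70–75% with nearly all of its UMIs in 40 WT and 12 GKO members.

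Prss53 and Cox6a2, which already set members apart from the 25 to 60% barcodes, were again among the steepest. Prss53 was at 704, 900.1 and 1092 CPM over the 3 bands in WT and at 757, 943 and 1213 in GKO. Cox6a2 was at 285, 454 and 565 in WT and at 351, 519 and 635 in GKO. Malat1, a nuclear long noncoding RNA, went the other way, with 17758, 13578 and 7928 in WT and 17182, 13096 and 6667 in GKO. Kcnq1ot1, also a nuclear noncoding RNA, fell by 1.11 and 1.02 on the log2 scale. Cd81, a tetraspanin known as a marker of immature β cells, was at 189, 115 and 61.4 in WT and at 171, 69.0 and 35.0 in GKO, and Mt1 at 707, 528 and 205 in WT and at 346, 121 and 52.5 in GKO. These genes were picked for their slope after the values were seen.

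A few genes were carried by small subsets of members. The ratio of variance to mean was taken after thinning 1256 WT and 444 GKO members to 5000 non-insulin UMIs, and it grows with a gene's level. Iapp (41.6 and 46.4), Pyy (44.9 and 41.3) and Malat1 (42.8 and 33.7) had the highest ratios. Iapp was found in every thinned member and ranged up to 1327 UMIs, whereas the tenth of members with the most Pyy held 47.8% and 40.5% of its UMIs.

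Npy, encoding neuropeptide Y, was present in few members and abundant in those. It had no UMI in 94.6% of WT members and 94.0% of GKO members, while 40 WT members (3.15%, 2.26 to 4.27) and 12 GKO members (2.68%, 1.39 to 4.64) had at least 10 UMIs and held 1726 of 1816 and 513 of 553 Npy UMIs. These had a median insulin share of 68.6% and 68.0%, and up to 166 and 138 Npy UMIs in a barcode. Their median depth was 55992.5 UMIs in WT and 45845.5 in GKO, against 40196 and 41149 over all members. Stmn1, a tubulin-binding protein of dividing cells, reached 10 UMIs in 20 WT members (1.58%) and 3 GKO members (0.671%), and of these 16 and 2 also had at least 10 UMIs of 7 mitosis genes such as Mki67 and Top2a. Members past the Stmn1 limit had a median depth of 54853.5 UMIs in WT and 59799 in GKO. In barcodes with 25 to 60% insulin, 41 WT (5.41%) and 15 GKO (4.67%) passed the Stmn1 limit and 12 (1.58%) and 3 (0.935%) the Npy limit. The median depth of those classes was 29759.5 and 28534 UMIs, and whether depth accounts for these shares was not tested.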

How the data were processed

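The deposited values are raw UMI counts per gene and barcode. The authors made 3′ libraries with 10x Genomics reagents, mapped reads to mm10 with STAR and counted with Cell Ranger 5.0.1, down-sampling reads across samples where needed. Free RNA had not been removed from these counts. The libraries held 7792 barcodes and 158067110 UMIs (WT) and 7289 barcodes and 103511757 UMIs (GKO).

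UMIs were summed over the members of each library and divided by the sum of all UMIs except those of Ins1 and Ins2. Genes with a mean level of at least 20 CPM were counted, without the genes of the rule, and a log2 ratio of 0.32 marked a difference. Members, lists and named genes were chosen with earlier results of these data known. Genes named were the markers and hormones, the 8 largest rises and falls of each comparison (mean of at least 50 CPM and 20 UMIs per library, without genes of other cell types' marker lists), and in each list the 2 most abundant and 2 most different; others were named after their values were seen. The self-made endothelial-marker, α-rule and δ-rule barcodes served as comparison. No doublet caller was run; limits on other hormones, on other cells' markers and on the 7.6% of members with the most UMIs took its place. Alternatives also changed the insulin limit (55%, 65%), the filters (1000 genes, 5% mitochondrial), the scale and the limit on levels, subtracted free RNA and weighted GKO members to the WT bands. Scaling factors came from TMM (edgeR 4.0.16) and the median of ratios (DESeq2 1.42.0), with R 4.3.3, Python 3.11.15, numpy 2.4.6, scipy 1.17.1 and matplotlib 3.10.9. Transcript lengths came from GENCODE M21 and matched 6122 of 6126 genes. The script was tested on simulated data. Values of a few genes that the rule names are not reported here.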

Additional observations from a re-analysis of the deposited data

How the results depend on the processing

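Each genotype is 1 pool, so the spread between mice is unknown and depth limits only rare transcripts. Over 14 alternatives, 51 of 53 named genes past a log2 ratio of 0.32 kept their direction, though not all stayed past that limit. At an insulin limit of 55% Apoe was at 0.093 (main value 0.55), Cd79a at −0.24 (−0.59), Cdkn1a at −0.31 (−0.46) and the immediate early list median at −0.27 (−0.46). At 65% Got1 was at 0.24 (0.48), Pyy at −0.30 (−0.89), Rbp4 at −0.21 (−0.61), Srpr at 0.31 (0.34) and the γ list median at −0.083 (−0.45). Hspb1 was at −0.24 (−0.48) without barcodes holding at least 3 UMIs of 22 markers, and Syt4 at 0.32 (0.36), just under the limit, without the members with the most UMIs. Cd74 turned to 0.28 (main value −0.87), and so the immune list median to 0.070, without barcodes holding the 22 markers (an alternative chosen after the data were seen), and Sparc, which alone makes the stellate list median, turned to 0.38 (−1.26) at an insulin limit of 55%. The cause was not tested.

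Members were 22.03% of WT and 9.08% of GKO barcodes at an insulin limit of 55%, 11.3% and 4.03% at 65%, and 19.8% and 8.47% at 5% mitochondrial UMIs, since each alters who is counted. They were 16.5% (WT) without the members with the most UMIs, and 16.6% and 6.33% without barcodes holding the 22 markers. Genes higher and lower in GKO numbered 39 and 82 at a mean level of 100, 2232 and 2746 with no limit, and 362 higher over all UMIs. Members against 25 to 60% barcodes gave 35 and 4703 over all UMIs, and 229 and 257 against barcodes of 50 to 60%. Dropping members with 3 UMIs of the full marker lists could not be done, since 1266 of 1269 WT and all 447 GKO members held them, Krt8, Krt18 and Epcam included. No paired analysis was possible because each group holds 1 library.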

Other observations

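Several genes listed as markers of other cells were counted in the high-insulin β cells. Krt18 and Krt8, keratins of simple epithelia, were at 266 and 144 CPM (of non-insulin UMIs) in WT members and at 279 and 157 in GKO members, and Krt7 was at 247.7 and 227.1. Epcam was at 263 and 246, and Cldn7, a claudin, at 139 and 114. The ductal markers Krt19 and Sox9 were at 0.681 and 0.227 in WT. Ttr, transthyretin, listed as an α cell marker, was at 4201 and 3655, above its 3359 and 2680 in barcodes with 25 to 60% insulin. Cd79a, a B cell receptor chain, was at 52.5 and 34.8, with Ptprc, carried by all leukocytes, at 0.568 and 0.477.

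Of 20 genes listed as kept low in mature β cells or as marking immature ones, the sum was 465 CPM in WT and 386 in GKO members, most of it from Rbp4 (147 and 96.5), Cd81 (130 and 110), Npy (103 and 87.9) and Gc (47.0 and 62.1). Some others were at trace levels. Ldha, lactate dehydrogenase, was at 1.87 and 1.91 CPM in WT and GKO members, Slc16a1, a lactate carrier, at 0.114 and 0, and Hk1, a hexokinase, at 0.398 and 0.159. Aldh1a3, linked to loss of β cell identity, was at 1.93 and 2.38.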
